A study of Mus musculus with 15 samples.

Results

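Transcripts of 7 genes that recover bile acids in the ileum and signal through the bile acid receptor FXR were followed in isolated epithelial cells of the adult mouse small intestine. The members were chosen by name, with earlier results of these data known. They are Slc10a2, Fabp6, Slc51a, Slc51b, Nr1h4, Nr0b2 and Fgf15, each read by 1 transcript cluster of the array, and they are 7 of 19938 genes with a symbol. RNA was read on 15 arrays of the Affymetrix Mouse Gene 1.0 design, n = 3 in each of 5 groups. These are wild-type CD1 ileum, wild-type CD1 jejunum, the ileum of adult mice labelled as carrying a Gata4 conditional knockin (cKI), the ileum of mice labelled as their adult controls, and the jejunum of adult mice labelled as Gata4 conditional knockouts (cKO). No treatment distinguished the groups, and the labels give neither an age beyond adult nor the alleles of the controls. They name no Cre driver, no strain for the cKI, control and cKO mice, and no jejunal control for the cKO. Genotype and mouse line therefore cannot be told apart wherever the cKO jejunum is set against a CD1 group. The same holds wherever the cKI or control ileum is set against a CD1 group. Whether a group's 3 arrays stand for 3 animals is not said, and every p-value measures the spread between these samples alone.

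Bile acids are made in the liver, released into the gut with a meal, and taken back almost wholly in the distal ileum. There the apical transporter encoded by Slc10a2 takes them up, the protein of Fabp6 binds them inside the enterocyte, and the paired products of Slc51a and Slc51b export them to the portal blood. Bile acids in the enterocyte activate FXR, encoded by Nr1h4. Among the genes that FXR induces are Fabp6, Slc51a, Slc51b, Nr0b2, which encodes the repressor SHP, and Fgf15, a hormone that travels to the liver and lowers bile acid synthesis. The transcription factor GATA4 is made in proximal but not distal small intestine, and the study asks whether it sets jejunal against ileal gene expression.

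The deposited values are on a log2 scale. They can be compared between arrays for a gene but not between genes. Each difference subtracts the second group named from the first and carries ± its standard error from 1 limma model of all 15 arrays. Limma's p-values were adjusted by Benjamini and Hochberg's method across the 11784 genes tested, and a gene was called at an adjusted p under 0.05. Testing required at least 1 group mean above 4.91, which is the median of the whole table. All 7 members passed that level, Nr0b2 only through the control ileum and the cKO jejunum. Folds are left out where either mean was below that level. The number of arrays limits the precision. In such whole-group RNA, fewer cells expressing a gene and less RNA per cell cannot be told apart.

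The sequences upstream of the annotated starts are shown for 3 members, Fabp6 and Slc10a2 because they were below the level filter in the wild-type jejunum alone and Nr0b2 because its matches for GATA and LRH-1 adjoin. They are RefSeq promoter entries on build GRCm38.p6, which held 6 of the 7 members, all but Fgf15. Each shows the 250 bases before the start, 5′ to 3′ on the strand of the gene, and capitals mark every motif match. The Fabp6 stretch is chr11:43601563-43601812 on the minus strand, that of Slc10a2 is chr8:5105288-5105537 on the minus strand, and that of Nr0b2 is chr4:133553126-133553375 on the plus strand.
Fabp6: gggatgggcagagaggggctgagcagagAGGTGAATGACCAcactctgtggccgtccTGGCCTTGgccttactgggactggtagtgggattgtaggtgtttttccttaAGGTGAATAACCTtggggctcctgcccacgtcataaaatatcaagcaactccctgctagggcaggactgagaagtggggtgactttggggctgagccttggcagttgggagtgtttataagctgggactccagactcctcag
Slc10a2: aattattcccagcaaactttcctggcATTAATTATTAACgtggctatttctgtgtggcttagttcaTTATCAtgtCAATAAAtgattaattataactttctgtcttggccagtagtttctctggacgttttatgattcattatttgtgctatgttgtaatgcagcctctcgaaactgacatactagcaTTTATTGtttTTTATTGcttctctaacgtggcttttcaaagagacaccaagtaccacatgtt
Nr0b2: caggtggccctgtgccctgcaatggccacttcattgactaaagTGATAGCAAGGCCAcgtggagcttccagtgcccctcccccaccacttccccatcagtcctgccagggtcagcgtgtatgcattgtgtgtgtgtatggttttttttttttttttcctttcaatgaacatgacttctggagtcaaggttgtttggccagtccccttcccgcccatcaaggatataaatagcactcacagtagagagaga

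Both strands were searched for 6 motifs, and no matches in the members overlapped. The FXR inverted repeat AGGTCANTGACCT, with up to 2 mismatches, was found at positions -222 to -210 and -142 to -130 of Fabp6, counted back from -1 at the base before the start. Of 32536 upstream stretches of the same length, 0.959% held such a match, and the other 5 members with an entry did not. The GATA letters, searched as AGATAA and as its variants that begin with T, end in G or do both, occurred in 26.5% of all stretches and in Slc10a2, Nr0b2, Nr1h4 and Slc51a. The half-site of LRH-1, a nuclear receptor of bile acid genes, spelled CAAGGTCA or CAAGGCCA, occurred in 3.27% of all and in Fabp6, Nr0b2 and Slc51a. In Nr0b2 it followed directly on the GATA match. The HNF1 motif GTTAATNATTAAC, with up to 2 mismatches, was in Slc10a2 and Nr1h4 (1.25% of all), the HNF4 motif AGGTCANAGGTCA, with up to 2 mismatches, in Nr1h4 (3.25%), and the CDX letters TTTATNG 3 times in Slc10a2 (9.74%). Slc51b held none of the 6. A match is a description of letters and not a binding site.

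Facts of the whole series bear on the results as follows. All 12 epithelial markers checked, Epcam, Cdh1 and Vil1 among them, had group means above 4.91 in all 5 groups. Array medians ran from 4.82 to 5.0, and no 2 arrays were identical. Gata4 was at 9.68, 9.45 and 9.47 in the wild-type jejunum and at 5.99, 5.43 and 5.39 in the wild-type ileum. It was at 6.71, 7.22 and 6.53 in the control ileum and at 8.02, 8.43 and 8.17 in the cKI ileum, higher in the cKI by 1.38 ± 0.185 (adjusted p = 0.00453). The knockin arrays thus lay above the control arrays and below the wild-type jejunum. The jejunum labelled cKO had 9.72, 9.88 and 9.93, not lower than in the wild-type jejunum (difference 0.31 ± 0.185, adjusted p = 0.322). The labels do not say which part of the gene is deleted, and the cluster can read transcript outside it, so this value does not check the cKO label. Every direction given below for the cKO rests on that label.

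Across the wild-type small intestine the genes of bile acid recovery were higher in the ileum than in the jejunum, and in the jejunum labelled cKO all 7 members were higher than in the wild-type jejunum. Of the 7 members, 5 were called lower in the jejunum (7.91% of all genes tested were) and none of the 7 higher (13.4% were), and in 6 of 7 the arrays of the groups did not overlap (40.3% of all genes). Their median difference was -1.77, against 0 over all genes tested. The cKO count is 7 of 7 called higher (5.17% of all genes were, and 7.65% lower), with a median of 1.6 against -0.03, and none of the 7 overlapped (27.2%). In the cKI ileum 2 of 7, Fabp6 and Slc10a2, were called lower than in the control ileum (0.424% of all genes were), and 5 of 7 did not overlap (20.9%). The median there was -0.9 against 0.03. Limma's unadjusted p was under 0.05 there for all 4 recovery members and for all 3 of Nr1h4, Nr0b2 and Fgf15. The share of all genes at that limit was not computed, so this count and the like counts for the lists below have no background beside them. Adjustment was made within each comparison, and 40 genes were called higher and 50 lower in the cKI, against 3290 between control and wild-type ileum. A difference of the same size can therefore be called in one comparison and not in another. Fabp6, Slc10a2 and Nr0b2 had wild-type jejunal means below the level filter and were tested through groups in which they were higher, so the counts that include them are a description. The other 4 members had every group mean above it. These comparisons of wild-type jejunum with ileum and of cKO with wild-type jejunum share the wild-type jejunal arrays. The 7 members were also chosen with earlier results of these data known. Their counts beside the shares of all genes are therefore a description and not a test.

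**Figure D1:**
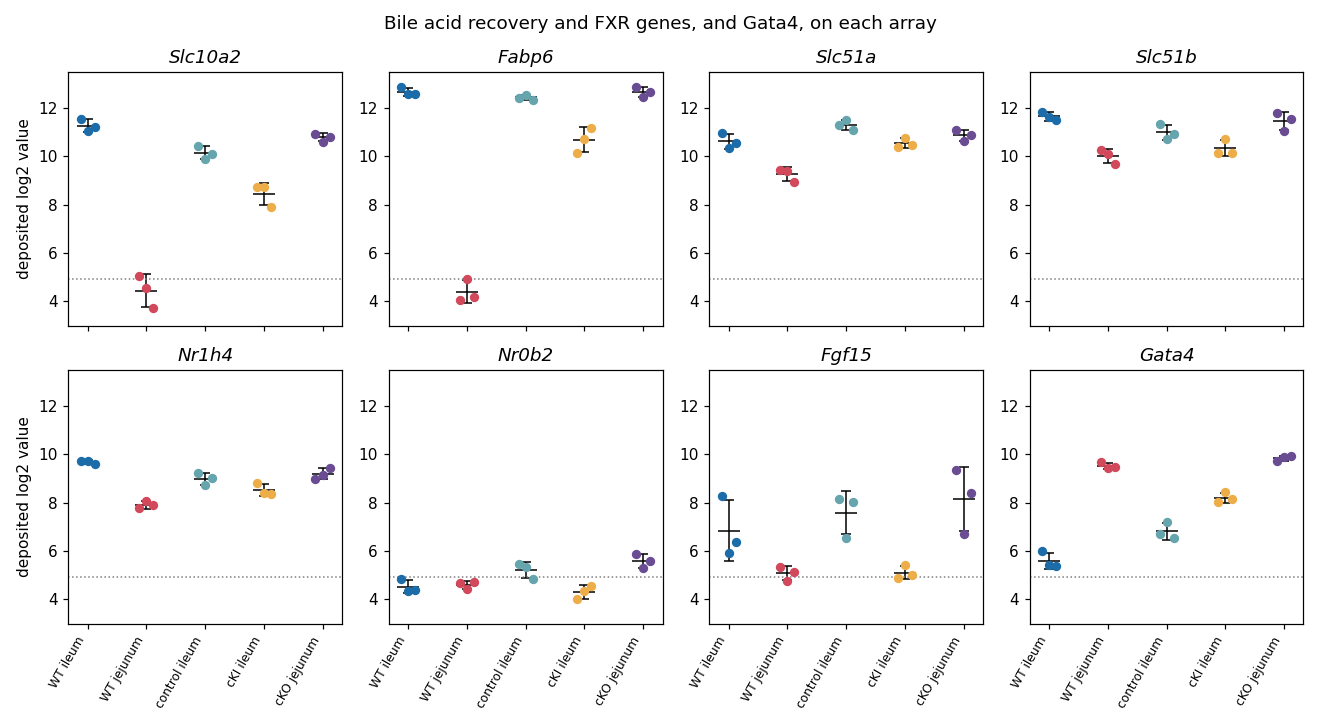
Deposited log2 value (vertical axis) of each member and of Gata4 on each array (points), by group; bars give the mean ± SD of n = 3 and the dotted line the level of 4.91 used as filter. Fabp6 and Slc10a2 fell to the dotted line in the wild-type jejunum only, and the cKI arrays of both lay between the control ileum and the wild-type jejunum.

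Slc10a2, the apical sodium-dependent transporter that takes bile acids up from the lumen, was below the level filter in the wild-type jejunum and above it in the other groups. It was at 11.56, 11.04 and 11.21 in the wild-type ileum and at 5.07, 4.55 and 3.73 in the wild-type jejunum. The difference was -6.82 ± 0.291 (adjusted p = 9.69e-10), and the jejunal mean of 4.45 ± 0.68 (SD, n = 3) was below the level of 4.91. The jejunum labelled cKO, at 10.94, 10.6 and 10.81, was far above the wild-type jejunum on every array. It was higher by 6.34 ± 0.291 (adjusted p = 4.51e-09), and its difference from the wild-type ileum was -0.48 (95% confidence interval -1.1 to 0.14, adjusted p = 0.388). In the control ileum the values were 10.44, 9.89 and 10.12, and in the cKI ileum 8.72, 8.72 and 7.9. The cKI arrays were all below the control arrays, by -1.7 ± 0.291 (3.26-fold, adjusted p = 0.016). That call was lost without control ileum replicate 3 (adjusted p = 0.0509), without cKI ileum replicate 3 (0.0618) and in a fit of the 6 arrays alone (0.0526). The cKI ileum had more Slc10a2 signal than the wild-type jejunum, by 4 ± 0.291 (adjusted p = 2.34e-07), with region, label and mice all differing.

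Fabp6, the cytosolic bile acid binding protein of the ileal enterocyte, was likewise below the level filter in the wild-type jejunum alone. Its values were 12.86, 12.58 and 12.59 in the wild-type ileum and 4.08, 4.93 and 4.18 in the jejunum, a difference of -8.28 ± 0.24 (adjusted p = 2.63e-11). With the cKO label it stood at 12.88, 12.46 and 12.67, within the spread of the wild-type ileum. The increase over the wild-type jejunum was 8.27 ± 0.24 (adjusted p = 2.67e-11), and the difference from the wild-type ileum was -0.01 (95% confidence interval -0.52 to 0.5). The control ileum had 12.4, 12.56 and 12.35 and the cKI ileum 10.15, 10.74 and 11.19. All 3 cKI arrays were thus below all 3 control arrays, by -1.75 ± 0.24 (3.35-fold, adjusted p = 0.00499), a call that held without each array of the 2 groups in turn (adjusted p from 0.00198 to 0.0207). Against the wild-type jejunum the cKI ileum was higher by 6.3 ± 0.24 (adjusted p = 4.48e-10), again with region, label and mice all differing.

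Slc51a, the alpha subunit of the basolateral bile acid exporter, was well above the level filter in every group. It was at 10.96, 10.33 and 10.57 in the wild-type ileum and at 9.46, 9.41 and 8.93 in the wild-type jejunum, 2.56-fold lower (difference -1.35 ± 0.187, adjusted p = 8.96e-05). The jejunum labelled cKO had 11.08, 10.64 and 10.89, all above the wild-type jejunum, with a rise of 1.6 ± 0.187 (3.04-fold, adjusted p = 4.73e-05). The control ileum, at 11.31, 11.49 and 11.08, was the highest group, above the wild-type ileum by 0.67 ± 0.187 (adjusted p = 0.0154). That last call was lost without wild-type ileum replicate 2 (0.0757) or control ileum replicate 2 (0.0635). The cKI ileum had 10.39, 10.78 and 10.47. These did not overlap with the control ileum, but the difference of -0.74 ± 0.187 was not called (adjusted p = 0.0878).

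Slc51b, the beta subunit without which the alpha subunit does not reach the membrane, followed the same regional order with a narrower spread of groups. Its values were 11.85, 11.62 and 11.49 in the wild-type ileum and 10.27, 10.09 and 9.7 in the wild-type jejunum, 3.1-fold lower (difference -1.63 ± 0.223, adjusted p = 7.85e-05). It was at 11.8, 11.05 and 11.55 in the jejunum labelled cKO, higher than in the wild-type jejunum by 1.44 ± 0.223 (2.72-fold, adjusted p = 0.00051). In the control ileum it stood at 11.35, 10.72 and 10.94 and in the cKI ileum at 10.16, 10.74 and 10.15, with 1 cKI array inside the control range. The difference of -0.65 ± 0.223 was not called (adjusted p = 0.198). The control ileum was called lower than the wild-type ileum (-0.65 ± 0.223, adjusted p = 0.0406), where Slc51a was called higher. That call of Slc51b was lost when 5 of the 6 arrays were left out in turn, all but control ileum replicate 1, and without a level filter (0.0542).

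Nr1h4, the gene of FXR itself, was lower in the jejunum than in the ileum of wild-type mice. It was at 9.71, 9.74 and 9.6 in the wild-type ileum and at 7.78, 8.08 and 7.89 in the jejunum, 3.42-fold lower (difference -1.77 ± 0.159, adjusted p = 1.49e-06). Jejunum labelled cKO had 9.0, 9.15 and 9.45, higher than in the wild-type jejunum by 1.29 ± 0.159 (2.44-fold, adjusted p = 7.87e-05) and below every wild-type ileal array. That last difference was -0.49 (95% confidence interval -0.83 to -0.15) and was not called (adjusted p = 0.101). The control ileum had 9.24, 8.73 and 9.01, lower than the wild-type ileum by -0.69 ± 0.159 (adjusted p = 0.00511). The cKI ileum, at 8.83, 8.4 and 8.36, overlapped with it, and the difference of -0.46 ± 0.159 was not called (adjusted p = 0.201).

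Nr0b2, whose product SHP lacks a DNA-binding domain and represses other nuclear receptors, had group means below the level filter in 3 of the 5 groups and no regional difference that was called. It was at 4.83, 4.33 and 4.39 in the wild-type ileum and 4.67, 4.42 and 4.73 in the wild-type jejunum (difference 0.09 ± 0.199, adjusted p = 0.808). Both means lay below 4.91. The highest group was the jejunum labelled cKO, at 5.9, 5.32 and 5.6, above the wild-type jejunum by 1 ± 0.199 (adjusted p = 0.0035) and above the wild-type ileum by 1.09 ± 0.199 (adjusted p = 0.00537). No cKO array overlapped with either wild-type group (against the wild-type jejunum, 27.2% of all genes did not overlap). Nr0b2 was tested only through the cKO jejunum and the control ileum. Its differences that involve either of these groups are therefore a description and not a test. The control ileum was at 5.45, 5.36 and 4.83 and the cKI ileum at 4.03, 4.35 and 4.56. The cKI arrays were all lower, and the difference of -0.9 ± 0.199 missed the threshold (adjusted p = 0.0517, and 0.0348 without control ileum replicate 3).

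Fgf15, the hormone by which the ileal enterocyte reports bile acid load to the liver, varied more between arrays of a group than any other member. Its values were 8.28, 5.91 and 6.36 in the wild-type ileum and 5.33, 4.75 and 5.15 in the wild-type jejunum. The ileal arrays were all higher, but the difference of -1.77 ± 0.633 was not called (adjusted p = 0.0607). With the replicate number as a block over all arrays the adjusted p was 0.0181, and with the block within sets of mice it was 0.066. It was 0.0387 in a fit of the 6 arrays alone and 0.0134 with array weights. The difference was -2.24 without wild-type ileum replicate 2 (adjusted p = 0.0351) and -1.06 without replicate 1 (0.269). Jejunal arrays labelled cKO had Fgf15 at 9.36, 6.72 and 8.4, all above the wild-type jejunum, with a rise of 3.08 ± 0.633 (8.48-fold, adjusted p = 0.00436). That rise was 2.48 without cKO jejunum replicate 1 and 3.8 without cKO jejunum replicate 2 (adjusted p = 0.0211 and 0.00104). The control ileum had 8.16, 6.56 and 8.02 and the cKI ileum 4.89, 5.43 and 5.0. The latter were near the wild-type jejunal values (difference 0.03, 95% confidence interval -1.32 to 1.38) and lay below all control arrays. The difference of -2.48 ± 0.633 from the control ileum was 5.56-fold, the largest fall of the 7 in the cKI, and was not called (adjusted p = 0.0937). A replicate block over all arrays gave 0.0386 and a block within sets 0.0924. Array weights gave 0.00656 and a fit of the 6 arrays alone 0.0662.

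**Figure D2:**
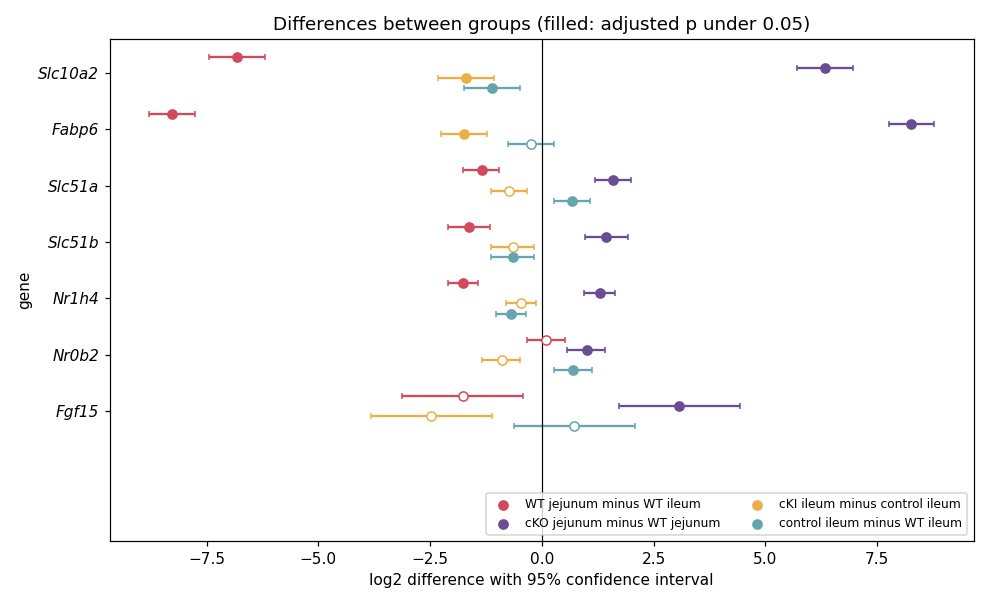
Log2 difference (horizontal axis) of each member in 4 comparisons, with 95% confidence intervals that are not adjusted for the number of genes; filled points had an adjusted p under 0.05. The cKO points lie at 1 to 8.27 and all 7 are filled, whereas of the cKI points, from -2.48 to -0.46, those of Slc10a2 and Fabp6 are filled.

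The cKI difference (against control ileum) and the cKO difference (against wild-type jejunum) were then compared in size by testing their sum; they share no arrays. A sum of 0 means that the fall in one equals the rise in the other. Region, labelled manipulation and mice all differ between them and cannot be told apart, and Gata4 was not lower in the cKO arrays. The sum was 6.52 ± 0.34 for Fabp6 (adjusted p = 1.11e-07) and 4.63 ± 0.411 for Slc10a2 (adjusted p = 1.62e-05), so that for these 2 of 7 members the rise in the jejunum labelled cKO exceeded the fall in the cKI ileum (1.2% of all genes were called in that direction). For Slc51a (0.86 ± 0.265, adjusted p = 0.105), Slc51b (0.79 ± 0.315, 0.215) and Nr1h4 (0.82 ± 0.225, 0.0662) the sums were positive and not called. With the replicate block within sets of mice the adjusted p of Nr1h4 was 0.0469, with array weights 0.0171, without control ileum replicate 1 0.0383 and without cKO jejunum replicate 1 0.0361. For Fgf15 (0.61 ± 0.896, 0.782) and Nr0b2 (0.09 ± 0.281, 0.901) they were small against their errors. Gata4 was lower in the cKI ileum than in the wild-type jejunum, by -1.33 ± 0.185 (adjusted p = 6.64e-05).

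Where each group stood between the wild-type regions was described on a scale with 0 at the wild-type ileum and 1 at the wild-type jejunum. It covered the 6 members other than Nr0b2, whose regions differed by only 0.09. The cKI ileum stood at 0.24 for Fabp6 (arrays from 0.18 to 0.31) and 0.41 for Slc10a2 (0.37 to 0.49), at 0.65 for Nr1h4, 0.8 for Slc51b and 0.98 for Fgf15 (0.8 to 1.1), and at 0.05 for Slc51a. The control ileum, however, was not at 0 either. It stood at 0.39 for Nr1h4 and 0.4 for Slc51b and on the far side of the ileum for Slc51a (-0.5) and Fgf15 (-0.41). The jejunum labelled cKO lay at 0 for Fabp6, 0.07 for Slc10a2, 0.12 for Slc51b and 0.27 for Nr1h4, with Slc51a at -0.18 and Fgf15 at -0.74. The scale of Fgf15 rests on a regional difference that was not called and that ran from -2.24 to -1.06 without single arrays, so its positions are not firm. Positions of Fabp6 and Slc10a2 are measured against a jejunal mean below the level filter, and all positions share the wild-type arrays.

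**Figure D3:**
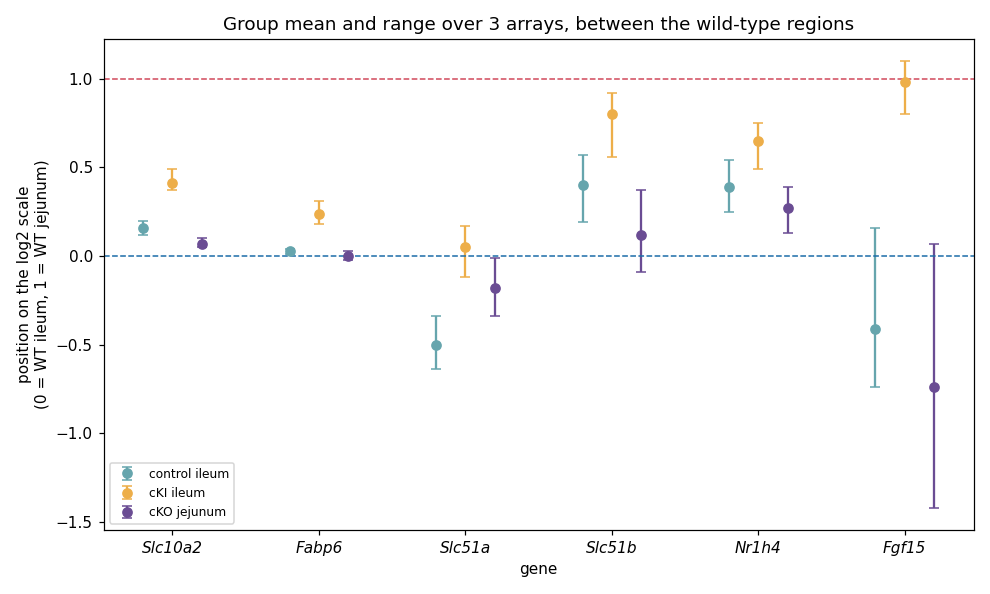
Position of the control ileum, cKI ileum and cKO jejunum (points are means, bars the range of n = 3 arrays) on a log2 scale where 0 is the wild-type ileal and 1 the wild-type jejunal mean, for 6 members on the horizontal axis. The cKO means lie between -0.74 and 0.27 and the cKI means between 0.05 and 0.98.

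Against the opposite region the groups gave the following counts. Between the jejunum labelled cKO and the wild-type ileum, 1 of 7 members was called, Nr0b2, which was higher (3.26% of all genes were). It was tested only through the cKO jejunum and the control ileum, since its wild-type ileal mean was below the level filter. Between the cKI ileum and the wild-type jejunum 4 of 7 were called higher, Fabp6, Slc10a2, Slc51a and Nr1h4 (25.5% of all genes were). There Slc51b differed by 0.33 ± 0.223 (adjusted p = 0.259), Nr0b2 by -0.3 ± 0.199 (0.249) and Fgf15 by 0.03 ± 0.633 (0.977). The 2 ileal groups without a labelled Gata4 change were themselves different: 2 members were called higher in the control ileum, Slc51a and Nr0b2, and 3 lower, Slc10a2, Slc51b and Nr1h4. That is 5 of 7 where 27.9% of all genes were called (19.3% higher and 8.61% lower). The call of Nr0b2 (0.7 ± 0.199, adjusted p = 0.0172) was lost without any 1 of 4 arrays, wild-type ileum replicates 2 and 3 and control ileum replicates 1 and 2. Leaving out single arrays brought the 5 to between 2 and 4, with 2 without wild-type ileum replicate 2 or control ileum replicate 2 and 3 without wild-type ileum replicate 3. Gata4 was higher in the control than in the wild-type ileum by 1.22 ± 0.185 (adjusted p = 0.000284).

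The order of the group means differed between members. For Slc10a2, Fabp6, Slc51b and Nr1h4 it ran from the wild-type ileum through the cKO jejunum, the control ileum and the cKI ileum to the wild-type jejunum. Of the 4 neighbouring pairs, the last 2 differed for Slc10a2 and Fabp6, the last for Nr1h4 (0.62 ± 0.159, adjusted p = 0.00646) and none of the 4 for Slc51b. For Slc51a the control ileum came first, then the cKO jejunum, the wild-type ileum and the cKI ileum, and only the last step, down to the wild-type jejunum, was called (1.28 ± 0.187, adjusted p = 9.79e-05). For Fgf15 the cKO jejunum was followed by the control ileum, the wild-type ileum, the cKI ileum and the wild-type jejunum, with 1 step called, from the wild-type to the cKI ileum (1.75 ± 0.633, adjusted p = 0.0434). For Nr0b2 the cKO jejunum and the control ileum led, and the step from the control ileum down to the wild-type jejunum was called (0.61 ± 0.199, adjusted p = 0.0244). Nr0b2 was tested only through these leading groups, and its wild-type jejunal mean was below the level filter. That step is therefore a description and not a test. For every member the neighbours were set by ranking the same means.

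Within each group, at least 4 of the 7 members were highest on the same array, which is given as a description. With 7 members and 3 arrays several must share an array, so a count of 4 does not show a common order. Among the arrays labelled cKO, replicate 1 was the highest array for 6 of 7 members and replicate 2 the lowest for 6 of 7, the exception being Nr1h4, which was highest on replicate 3. In the wild-type ileum, replicate 1 was again the highest for 6 of 7, all but Nr1h4, and replicate 2 the lowest for 5. In the control ileum, replicate 1 was the highest for 5 and replicate 2 the lowest for 4. In the wild-type jejunum replicate 1, and in the cKI ileum replicate 2, was the highest for 4. The mean of the 12 epithelial markers was highest on these same arrays (11.15 cKO jejunum, 11.11 wild-type ileum, 10.9 control ileum, 10.88 wild-type jejunum, 10.86 cKI ileum). It was lowest on replicate 2 of the cKO jejunum (10.81) and wild-type ileum (10.65), but on replicate 3 of the control ileum (10.82). In the cKI ileum the marker mean was lowest on replicate 3 (10.37), whereas 4 members were lowest on replicate 1. In the wild-type jejunum it was lowest on replicate 3 (10.68), as were 3 members. The share of all genes with this order was not computed, and its cause was not tested. The within-group SD of Fgf15 was 0.93, larger than that of 99.7% of the genes tested, against a median of 0.174 over all genes. It was 0.415 for Slc10a2 and 0.207 for Nr1h4, larger than for 96.4% and 66.8% of genes. The labels do not give the feeding state or the time of collection.

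**Figure D4:**
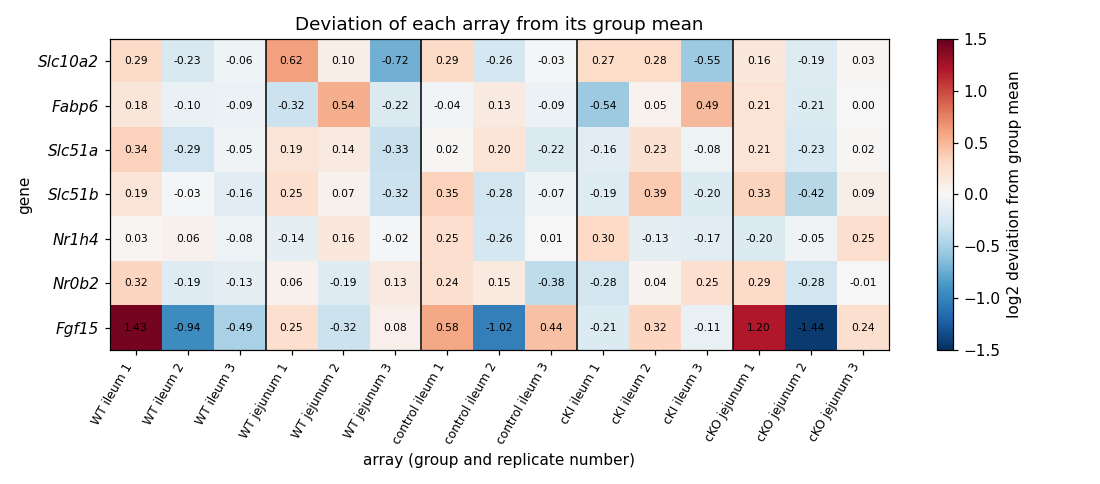
Deviation (log2, colour and printed value) of each array, on the horizontal axis, from its group mean, for the 7 members. Fgf15 deviated by 1.43 on wild-type ileum replicate 1, by 1.2 on cKO jejunum replicate 1 and by -1.44 on cKO jejunum replicate 2. Slc10a2, Fabp6, Slc51a, Slc51b and Nr0b2 deviated in the same direction on these arrays, and Nr1h4 by 0.03, -0.2 and -0.05.

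Over all 15 arrays the genes whose values most resembled each member were named by Pearson's r, as a description that includes the group differences. For Fabp6 these were Suox, which encodes sulfite oxidase (r = 0.983), Dpysl2 (0.975) and Mgat4c (0.971), and for Slc10a2 Tmigd1 (0.985), Suox (0.978) and the tetraspanin Cd9 (0.974). Suox differed between jejunum and ileum by -4.59 ± 0.151, between cKO and wild-type jejunum by 4.51 ± 0.151 and between cKI and control ileum by -1.82 ± 0.151. It was picked by r on these same arrays, so its differences follow in part from that choice and are a description. Those of Nr1h4 were Cyp51 (0.967), a sterol demethylase, Ampd3 (0.947) and Msmo1 (0.941), a sterol oxidase. Msmo1 was also the closest to Slc51b (0.944), followed by Slc22a23 (0.939) and Crybg1 (0.937). For Slc51a they were Dip2a (0.983), Camta2 (0.969) and B4galt4 (0.967). Nr0b2 and Fgf15 had lower values of r and the same first gene, Fyb2 (0.851 and 0.901). It was followed by Slc25a4 (0.828) and 9930012K11Rik (0.824) for Nr0b2 and by Ccdc68 (0.857) and Rnf24 (0.854) for Fgf15.

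Other carriers of bile acids did not share the ileal pattern as a group. Of 9 listed, 6 were tested: 3 were higher and 2 lower in the wild-type jejunum than in the ileum (median 0.08, against 0 over all genes). Of all genes tested 13.4% were higher and 7.91% lower in that comparison, and 5.17% and 7.65% in cKO against wild-type jejunum, which are the shares beside which the counts of this and the following lists stand. Without wild-type ileum replicate 1 the regional count of 5 was 3. Fabp1, a fatty acid carrier that also binds bile acids, stood 8.19 ± 0.645 above the ileum in the jejunum (adjusted p = 4.76e-07) and lower in the cKO than in the wild-type jejunum by -3.44 ± 0.645 (adjusted p = 0.00232). In the cKI ileum its difference of 2.59 ± 0.645 was not called (adjusted p = 0.0855). Abcc2, an apical pump of conjugated anions, was 6.31-fold higher in the jejunum (adjusted p = 0.000235) and in the cKO jejunum differed by 0.28 ± 0.409 (adjusted p = 0.725). Slco2b1, an organic anion uptake carrier, was also higher in the jejunum (0.56 ± 0.142, adjusted p = 0.0107), a call lost without wild-type ileum replicate 1 or 2 or wild-type jejunum replicate 2. Abcg2, an apical efflux pump, took the direction of the members, lower in the jejunum (-0.63 ± 0.186, adjusted p = 0.0252), higher in the cKO jejunum (0.73 ± 0.186, 0.0167) and lower in the cKI ileum (-0.85 ± 0.186, adjusted p = 0.05, just under the threshold before rounding). Its cKI call was lost under 5 other settings and without any 1 of 4 arrays, replicates 1 and 3 of both groups. Its regional call was lost without any 1 of 4 arrays, wild-type ileum replicates 1 and 3 and wild-type jejunum replicates 1 and 3, and its cKO call without wild-type jejunum replicate 3 or cKO jejunum replicate 1. Abcc4, a basolateral pump, was lower in the jejunum (-0.79 ± 0.175, adjusted p = 0.0041). The bile salt pump of hepatocytes, Abcb11, and the hepatic uptake carrier Slc10a1 had all group means below the level filter.

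Among nuclear receptors and factors around FXR, 17 of 20 listed were tested, with 8 higher and 1 lower in the wild-type jejunum (median 0.21). Under the cKO label 1 was higher and 4 lower (median -0.06). These 5 were 2 without wild-type jejunum replicate 2, and 3 without wild-type jejunum replicate 3 or cKO jejunum replicate 2. In the cKI ileum 1, Gata4, was higher and none of the 17 lower. Nr1i3, the xenobiotic receptor CAR, stood 3.36 ± 0.198 above the ileum in the jejunum (adjusted p = 2.23e-08) and lower in the cKO jejunum by -1.93 ± 0.198 (adjusted p = 1.37e-05). Ppara, the fatty acid receptor, and Nr1h3, the oxysterol receptor LXR alpha, were lower in the cKO jejunum by -0.73 ± 0.158 and -0.67 ± 0.179 (adjusted p = 0.00657 and 0.0221), the call of Nr1h3 being lost without wild-type jejunum replicate 1 or 2 or cKO jejunum replicate 2. Rxra, the obligate partner of FXR, differed by 0.04 in both the regional and the cKO comparison (adjusted p = 0.8 and 0.841). Gata6, a paralog of Gata4, was higher in the jejunum by 0.79 ± 0.0997 and differed by -0.2 ± 0.0997 in the cKO (adjusted p = 0.233). Of 9 coregulators tested, 2 were higher in the jejunum, Ppargc1a (2.19 ± 0.211) and the deacetylase Sirt1 (0.42 ± 0.127, adjusted p = 0.0269, lost without wild-type ileum replicate 1 or 2 or wild-type jejunum replicate 2), and 1 was lower in the cKO jejunum, Ppargc1a, a coactivator of oxidative metabolism (-1.52 ± 0.211, adjusted p = 0.00021). By limma none of the 9 was called in the cKI, and 0 had an unadjusted p under 0.05.

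Further genes reported to respond to FXR agonists in the intestine were read as well, of which 7 of 9 listed were tested. In the wild-type jejunum 3 were lower and none of the 7 higher (median -0.39), and the same 3 were higher in the jejunum labelled cKO (median 0.24). They were Nos2, the inducible nitric oxide synthase (-3.75 ± 0.36 and 3.45 ± 0.36), Car12, a carbonic anhydrase (-0.95 ± 0.114 and 1.18 ± 0.114), and Sdc1, a cell surface proteoglycan (-0.65 ± 0.112 and 0.95 ± 0.112). In the cKI ileum none of the 7 was called by limma, 4 had an unadjusted p under 0.05, and these 3 differed by -1.09 ± 0.36, -0.41 ± 0.114 and -0.39 ± 0.112. In the list around the FGF15 signal 5 of 7 were tested, with 3 lower in the wild-type jejunum and the same 3 higher in the cKO jejunum. Malrd1, whose product promotes FGF15 release, differed by -0.81 ± 0.184 and 0.66 ± 0.184 (adjusted p = 0.0047 and 0.0277), and by -0.71 ± 0.184 in the cKI (adjusted p = 0.0942). Fgfr4, the receptor of FGF15, differed by -0.7 ± 0.169 and 0.62 ± 0.169, and Fgfr2 by -0.62 ± 0.109 and 0.4 ± 0.109. The cKO calls of these 3 did not hold in a fit of the 6 arrays alone. Malrd1 also lost its call without any 1 of 3 arrays (wild-type jejunum replicates 1 and 3, cKO jejunum replicate 1). Fgfr4 lost it without wild-type jejunum replicate 1 or 2 or cKO jejunum replicate 2 or 3, and Fgfr2 without wild-type jejunum replicate 1 or 3 or cKO jejunum replicate 2 or 3. Klb, the coreceptor of FGF15 on its target cells, had every group mean below the level filter. None of the 5 was called by limma in the cKI, where 2 had an unadjusted p under 0.05.

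Bile acid synthesis, a hepatic pathway, was largely below the level filter, with 4 of 10 listed genes tested and Cyp7a1, Cyp8b1 and Baat not. Cyp27a1, the mitochondrial sterol hydroxylase, was higher in the wild-type jejunum (1.46 ± 0.264, adjusted p = 0.000922) and lower in the cKO jejunum (-1.32 ± 0.264, adjusted p = 0.00358), as was Amacr, a peroxisomal racemase (0.54 ± 0.119 and -0.56 ± 0.119). Of 9 tested genes of xenobiotic and bile acid clearance, 5 were higher and 1 lower in the wild-type jejunum (median 2.18), and 3 rose and 3 fell in the cKO jejunum (median -0.26), a count of 6 that was 3 without wild-type jejunum replicate 2. Cyp2b10, a target of CAR, went furthest, by 7.23 ± 0.33 and -6.82 ± 0.33, and Cyp3a11, a target of PXR, by 4.6 ± 0.525 and -1.85 ± 0.525. The cKO call of Cyp3a11 (adjusted p = 0.0304) was lost without any 1 of the 6 arrays. Cyp2c55 rose in the cKO jejunum by 2.82 ± 0.572 (adjusted p = 0.00403), and the efflux pump Abcb1a by 1.58 ± 0.32 (adjusted p = 0.004). By limma none of these 9, nor of the 4 synthesis genes, was called in the cKI; 3 and 0 had an unadjusted p under 0.05.

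**Figure D5:**
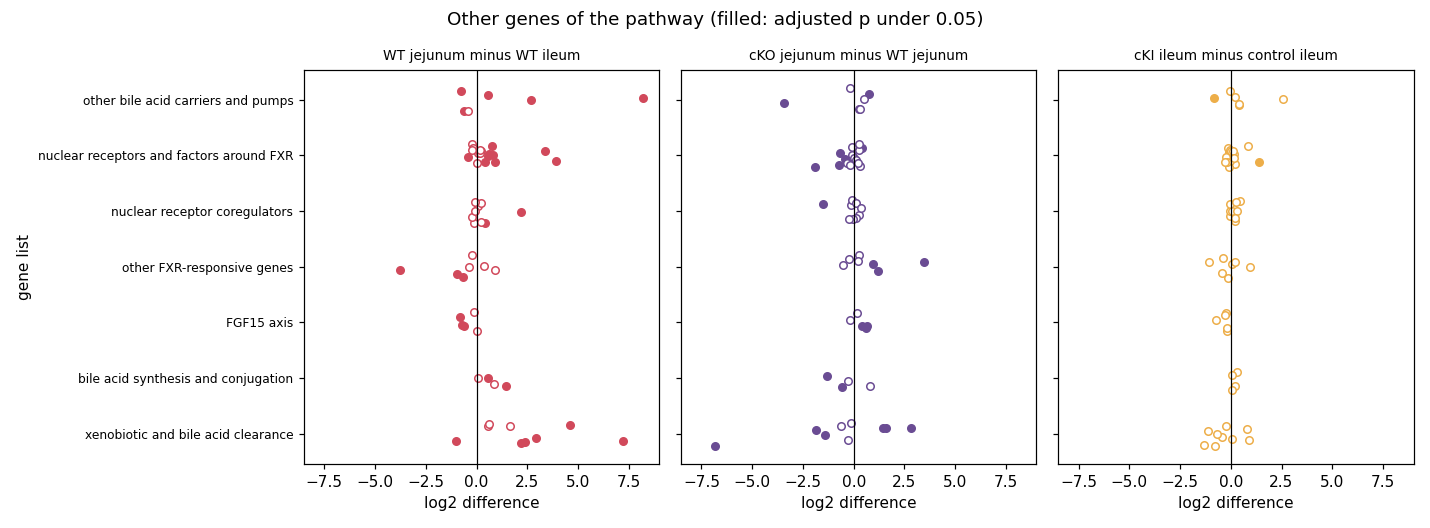
Log2 difference (horizontal axis) of each tested gene of 7 further lists (rows) in 3 comparisons (panels); filled points had an adjusted p under 0.05 and the vertical scatter within a row carries no value. In the cKI panel 2 points are filled, those of Gata4 and Abcg2.

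Markers of other cells moved with some of these groups. Of 12 stromal and smooth muscle markers 10 were tested, and 8 were lower in the wild-type jejunum than in the ileum, where the mean level of the list ran from 4.47 to 4.71 against 5.24 to 5.61. In the cKI ileum 2 were lower than in the control ileum, with list means of 5.13 to 5.43 against 5.47 to 6.51, the highest being control ileum replicate 2. Among cKO arrays 1 was higher than in the wild-type jejunum, at 4.82 to 5.05. Of 6 tested B and plasma cell markers 1 was lower in the cKI (4.81 to 5.03 against 4.88 to 6.76). All 6 tested goblet cell markers were lower in the wild-type jejunum (10.18 to 10.31 against 11.07 to 11.18), and 5 of them were higher in the cKO jejunum (10.66 to 10.77). In the cKI ileum 1 goblet cell marker was lower than in the control ileum (10.77 to 10.86 against 11.14 to 11.2). None of 6 tested T and NK cell markers was called in the cKI by limma. All 6 had an unadjusted p under 0.05, a limit at which the share of all genes was not computed. The list means there were 4.71 to 5.98 against 6.06 to 6.64. Of 12 epithelial markers 3 were lower in the wild-type jejunum and 3 higher in the cKO jejunum. Between control and wild-type ileum, 4 of 7 crypt and proliferation markers were higher (8.36 to 8.53 against 7.92 to 8.28), as were 3 stromal, 3 goblet cell, 2 epithelial, 2 T and NK cell, 1 B and plasma cell and 1 myeloid marker, while 1 stromal, 1 goblet cell and 1 myeloid marker were lower. Of all genes tested 19.3% were higher and 8.61% lower there. Between cKI ileum and wild-type jejunum, 5 of 7 crypt (8.55 to 8.82 against 7.87 to 8.09), 5 of 10 stromal and 3 of 5 myeloid markers were higher. So were 3 of 6 goblet cell and 2 of 12 epithelial markers, while 6 of 12 epithelial and 2 of 6 T and NK cell markers were lower. Of 11784 genes tested, 3001 were higher and 1923 lower in that comparison. Between cKO jejunum and wild-type ileum, 4 of 6 goblet cell, 2 of 10 stromal and 1 of 5 myeloid markers were lower, as were 217 of all 11784 genes. Of 7 endothelial markers 6 had all group means below the level filter. Without control ileum replicate 2 the cKI differences were -1.68 for Fabp6 (adjusted p = 0.0194), -1.83 for Slc10a2 (0.035) and -2.99 for Fgf15 (0.0886). Control ileum replicate 3 stayed in, with list means of 6.44 for B and plasma cells and 6.47 for T and NK cells. Leaving out replicate 2 thus cannot separate other cells from the cKI differences. The part of other cells in the results was not tested.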

How the data were processed

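The authors deposited 1 table of log2 values, 1 for each of 35556 transcript clusters on 15 arrays, made in Partek, per the labels. Background correction, normalization and summarization are not given in the sources used here, and the log2 scale was read from the range of the values. Of the clusters 21789 carried 1 gene symbol, 1621 several and 12146 none in the platform annotation; only the first were used. For 999 symbols with several clusters the one with the highest mean was taken. Genes with no group mean above 4.91 were left out (8154). A model with 1 mean per group was fitted with limma 3.58.1 in R 4.3.3 (10 residual degrees of freedom, eBayes, two-sided tests), and the steps were tested on simulated data.

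The 7 members and all gene lists were chosen with earlier results of these data known. Named are the members and Gata4, up to 3 genes per list by smallest p in each of 3 comparisons, and the 3 genes most alike each member. Equal replicate numbers may mark shared animals, which the labels do not say. Deviations of equally numbered arrays from their group means correlated by 0.334, 0.216 and 0.161 between the wild-type regions. Between the cKI and the control ileum they correlated by 0.128, 0.177 and 0.258. All correlations exceeded a limit of 0.1 in these 2 comparisons and in no other described. Between the cKO jejunum and the wild-type ileum, which carry different genotype labels, they were 0.474, 0.257 and 0.058. The correlations thus cannot tell whether equal numbers mark shared animals.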

Additional observations from a re-analysis of the deposited data

Results flagged for a closer look

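For 2 members the difference under the cKO label exceeded in size the one under the cKI label. Region, labelled manipulation and mice differ between these comparisons and cannot be told apart. The sum of the cKI difference in the ileum and the cKO difference in the jejunum was 6.52 for Fabp6 (adjusted p = 1.11e-07 in limma) and 4.63 for Slc10a2 (adjusted p = 1.62e-05). The rise in the jejunum labelled cKO was seen on 3 of 3 arrays of either gene, and so was the fall in the cKI ileum. Leaving out single arrays moved the sums to between 6.28 and 6.8 and between 4.27 and 4.94.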

How the results depend on the processing

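All counts of members called in the regional, cKO against wild-type jejunum and cKI against wild-type jejunum comparisons stayed within 1.5 times under every alternative run. For cKI against control ileum the count of 2 was 6 with array weights, 1 with only the 6 arrays compared, and from 1 to 2 without single arrays (1 without cKI ileum replicate 3). With a replicate block over all arrays it was 3, Fgf15 being the addition; the block within sets of mice changed no call of a member there. Among the other comparisons that block ended the call of Slc51b between control and wild-type ileum (adjusted p = 0.053) and made the sum of the effects of Nr1h4 pass (0.0469). For control against wild-type ileum the count of 5 ran from 2 to 4 without single arrays. For cKO jejunum against wild-type ileum it was 0 with a level filter at 6, which removed Nr0b2. Signs turned for differences near 0 that were not called. For Fgf15 between cKI ileum and wild-type jejunum the values were -0.03 after quantile normalization, -0.01 after centring array medians and from -0.13 to 0.15 without single arrays. For cKO jejunum against wild-type ileum Fabp6 had 0.03 after centring and from -0.11 to 0.1 without single arrays, and Slc51b from -0.36 to 0.02. The sum for Fgf15 was -0.07 with array weights and that for Nr0b2 from -0.1 to 0.24 without single arrays, and the regional difference of Nr0b2 ran from 0 to 0.25. The cause was not tested. The share of higher among all called genes moved by over 10 percentage points with scaling in some comparisons. After quantile normalization it went from 62.8% to 52% between the wild-type regions and from 40.3% to 51.2% between cKO and wild-type jejunum. Between control and wild-type ileum it went from 69.1% to 47.9%. The shares of all genes called higher or lower in these comparisons therefore depend on the scaling. Signal near the level filter limits Nr0b2 in all groups, and in the wild-type jejunum Slc10a2 and Fabp6.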
